A study of Mus musculus with 8 samples.

Results

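A set of 10 receptors that bind modified lipoproteins, microbes, haemoglobin complexes and other ligands were followed in fat pad cells, namely Marco, Msr1, Cd36, Scarb1, Scarb2, Cd163, Stab1, Stab2, Mrc1 and Lrp1. They were chosen by name, and each of the 10 symbols matched 1 identifier among the 56748 rows of the count table. All 10 passed the filter on low counts. RNA came from cells that F4/80 magnetic beads retained after Liberase digestion of inguinal fat pads of WT female mice, whose age the labels do not give. The Aldara group (4 libraries) received 62.5 mg of Aldara, a cream with 5% imiquimod, which activates Toll-like receptor 7, and the Vehicle group (4 libraries) an equivalent volume of Boots Aqueous Cream/10% Vaseline Lanette Cream. Both creams went onto shaved back skin near the tail on 3 consecutive days, and mice were culled 24 h after the last dose. A library holds the bead-selected cells of 6 fat pads combined (about 30000 cells), from preparations in which flow cytometry had counted over 90% F4/80 and CD64 double-positive cells. Whether the 4 pools of a treatment stem from different mice is not stated, and the p-values describe variation among pools, which may be technical.

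Scavenger receptors are a loose family grouped by ligand, not by descent. Macrophages use them to take up oxidised lipoproteins, bacteria, dying cells and haemoglobin, and some also work in endothelium, adipocytes or epithelium. In adipose tissue, Mrc1 and Cd163 are commonly used as markers of resident macrophages. Marco is a class A receptor with a collagen-like stalk that binds bacteria and particles, and is found mainly on macrophages of the splenic marginal zone, peritoneum and lung in unchallenged mice.

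Total counts ranged from 19537607 to 24340674 in Aldara libraries and from 21874780 to 34471508 in Vehicle libraries. Levels are CPM, counts relative to the total of the library, scaled with TMM factors, which equalise the bulk of genes, and adjusted p-values come from edgeR's quasi-likelihood test with Benjamini-Hochberg adjustment over 16780 genes. Of these, 1171 (6.98%) were called higher and 647 (3.86%) lower in Aldara at an adjusted p under 0.05, against 979 and 990 with upper-quartile factors. Adgre1, which encodes F4/80, averaged 967 ± 476 CPM in Aldara and 82.5 ± 20.4 CPM in Vehicle (SD, n = 4 each, log2 fold change 3.55, adjusted p = 0.0021). Fcgr1, which encodes CD64, averaged 26.5 ± 12.3 CPM in Aldara and 19.7 ± 1.85 CPM in Vehicle. Its log2 fold change of 0.42 did not pass (adjusted p = 0.436). In these bulk pools, more macrophages, more RNA per macrophage and changes of single genes within macrophages cannot be told apart. Against the purity label, epithelial transcripts were abundant in all libraries: Epcam, Krt8 and Krt18 summed to between 7004 and 8871 CPM in Aldara and between 6896 and 10134 CPM in Vehicle.

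The promoters of 4 receptors are shown because their genes span the responses: Marco had the largest change, Mrc1 was the most abundant receptor per length in Aldara, Lrp1 passed the test with a modest change, and Scarb2 did not pass. They come from RefSeq (GRCm38.p6), where 8 of the 10 receptors matched, and run from 250 bases before to 50 after the gene's start. They are read along the gene's strand. Capitals mark matches, on either strand, to GAGGAA (the core bound by PU.1), TGCTGA (a core that MAF factors bind) and TGACNNNGC (an antioxidant response core).
Marco (chr1:120504975-120505274, minus strand): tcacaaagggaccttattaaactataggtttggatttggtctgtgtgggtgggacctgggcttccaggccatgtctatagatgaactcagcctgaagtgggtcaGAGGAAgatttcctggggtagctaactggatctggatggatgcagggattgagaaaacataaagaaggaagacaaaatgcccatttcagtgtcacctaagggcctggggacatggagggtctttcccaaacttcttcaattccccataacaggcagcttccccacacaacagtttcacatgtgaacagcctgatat
Mrc1 (chr2:14229164-14229463, plus strand): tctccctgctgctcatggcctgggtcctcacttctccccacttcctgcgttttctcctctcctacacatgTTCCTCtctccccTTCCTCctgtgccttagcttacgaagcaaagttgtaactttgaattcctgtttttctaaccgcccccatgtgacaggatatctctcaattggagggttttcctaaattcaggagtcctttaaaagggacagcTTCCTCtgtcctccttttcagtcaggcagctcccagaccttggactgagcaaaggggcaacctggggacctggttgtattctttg
Lrp1 (chr10:127621099-127621398, minus strand): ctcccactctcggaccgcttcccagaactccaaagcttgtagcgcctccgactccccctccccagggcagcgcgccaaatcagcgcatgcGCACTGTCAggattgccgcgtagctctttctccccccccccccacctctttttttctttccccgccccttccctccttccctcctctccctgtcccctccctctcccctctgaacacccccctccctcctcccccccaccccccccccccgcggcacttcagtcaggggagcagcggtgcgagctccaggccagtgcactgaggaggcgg
Scarb2 (chr5:92505608-92505907, minus strand): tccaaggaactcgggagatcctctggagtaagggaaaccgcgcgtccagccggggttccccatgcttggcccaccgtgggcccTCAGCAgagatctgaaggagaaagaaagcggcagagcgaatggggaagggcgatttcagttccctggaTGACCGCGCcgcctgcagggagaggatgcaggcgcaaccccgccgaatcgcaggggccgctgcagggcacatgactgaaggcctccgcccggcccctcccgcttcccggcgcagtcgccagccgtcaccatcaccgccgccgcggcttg

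The Marco window held no CG dinucleotide and the Mrc1 window 3, against 16 for Lrp1, 28 for Scarb2 and a median of 7 over 32851 promoters. Of the matched windows not shown, Cd36 held 3, Cd163 2, Stab1 7 and Stab2 4. Among the 8 windows, GAGGAA occurred once each for Marco and Stab1 and 3 times for Mrc1, and 28.3% of all promoters hold it. TGACNNNGC was present for Lrp1 and Scarb2 (12.4% of all promoters), and TGCTGA for Cd36, Scarb2 and Stab1 (19.5%). Letters of AP-1 (TGANTCA, in 7.81% of promoters) and of an E-box (CACGTG, in 7.15%) occurred in none of the 8 windows. These motifs do not overlap one another in the shown windows, and a match describes letters only.

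With TMM scaling and edgeR on unpaired groups, 3 of the 10 receptors were called higher in Aldara (Marco, Cd36 and Lrp1) and 0 lower. Cd36 and Lrp1 lost the call when libraries were scaled to macrophage genes. Under that scaling 7 of the 10 fold changes, theirs included, turned sign. At an unadjusted p under 0.05 there were 6 higher and 0 lower (14.4% and 11.7% of all genes). Of all tested genes 6.98% were called higher and 10.8% in either direction, and the same 3 were the receptors whose Aldara libraries all lay above the Vehicle libraries (9.97% of all genes). Scarb2 was the 1 receptor with every Aldara library below every Vehicle library (7.79% of all genes). The median log2 fold change of the 10 receptors was 0.88, against 0.01 over all tested genes. With the replicate number of the labels as a block, 6 receptors were called higher and 0 lower (9.21% and 6.14% of all genes), the added calls being Cd163, Stab1 and Mrc1. DESeq2 also called 6 higher and 0 lower (9.55% and 7.43% of the 16123 genes it gave an adjusted p).

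**Figure D1:**
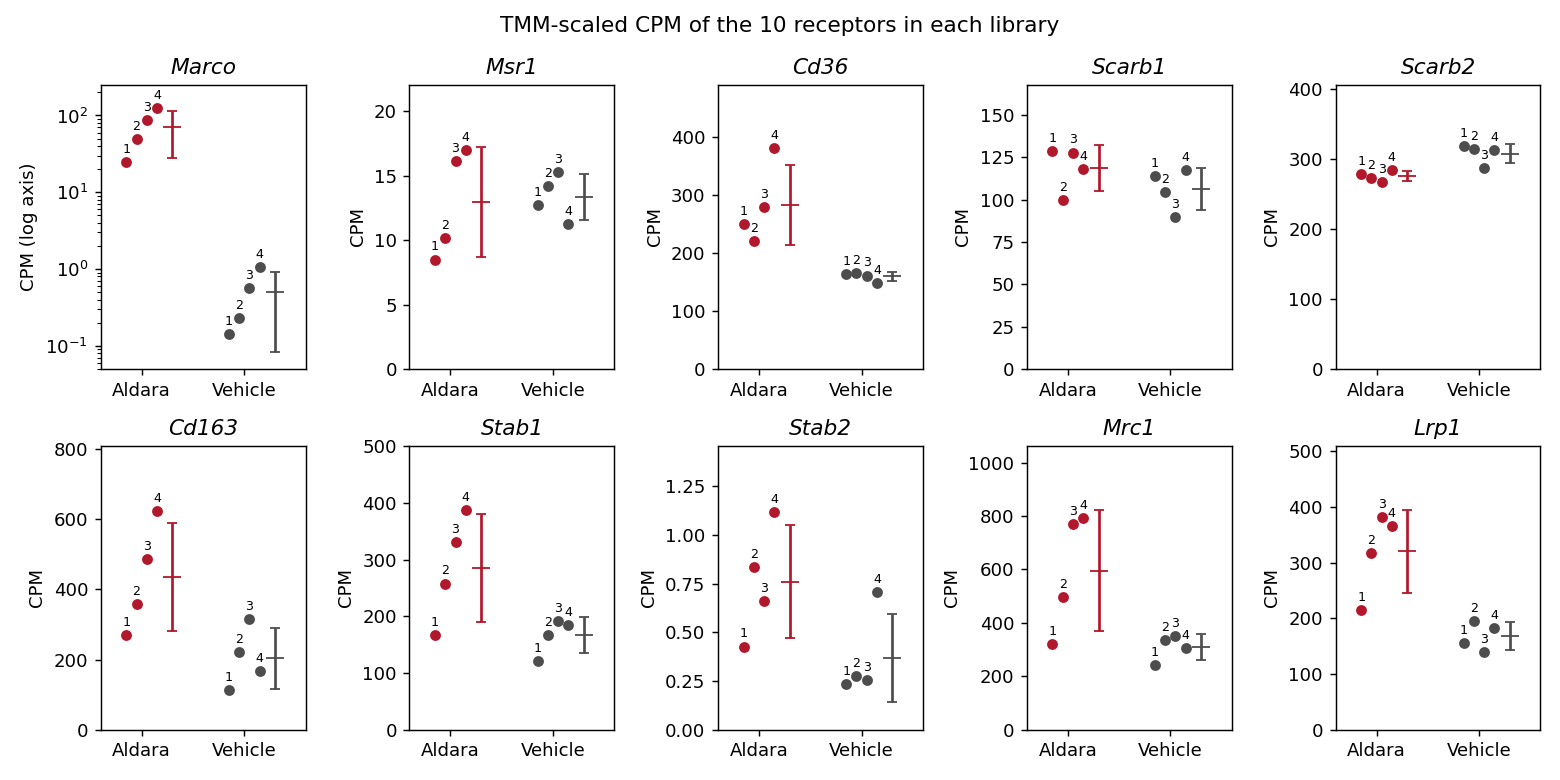
TMM-scaled CPM of each receptor in 4 Aldara and 4 Vehicle libraries; points are libraries with their replicate number, and the dash with bars is the mean ± SD. The Marco axis is logarithmic and shows the 4 Aldara libraries between 24.5 and 123 CPM, above the Vehicle libraries at 0.141 to 1.06 CPM; Scarb2 is lower in all Aldara libraries, and Msr1 overlaps between groups.

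With TMM scaling, class A holds the receptors with the most and the least change; with panel scaling Marco still changed most, and Cd163 least. Marco counts were 574, 1222, 2131 and 2318 in Aldara replicates 1 to 4, against 3, 5, 20 and 33 in Vehicle replicates 1 to 4. On the CPM scale these were 24.5, 48.7, 87.7 and 123 in Aldara and 0.141, 0.228, 0.565 and 1.06 in Vehicle. The groups were far apart, although values also spread widely within each, with replicate 1 lowest and replicate 4 highest in both. The log2 fold change was 7.02 (SE 0.67, adjusted p = 0.0012). The pooled Aldara counts were 123 times the pooled Vehicle counts per effective library (95% exact interval 95.4 to 161, counting error only). The change of Marco was called in all 8 fits that left out 1 library, at log2 fold changes between 6.60 and 7.65.

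Msr1, also called SR-A1, is the class A receptor that takes up acetylated and oxidised lipoproteins. It measured 8.50, 10.2, 16.2 and 17.0 CPM in Aldara and 12.7, 14.2, 15.3 and 11.2 CPM in Vehicle. The Vehicle range lay inside the Aldara range, with the 2 lowest and the 2 highest libraries both from Aldara. The fitted difference of −0.05 on the log2 scale (SE 0.22) did not pass (adjusted p = 0.923). The log2 ratio of Marco to Msr1 within a library, which no scaling factor affects, averaged 2.27 ± 0.56 in Aldara and −5.05 ± 1.29 in Vehicle, a difference of 7.32. An exact two-sided permutation test gave p = 0.0286, the smallest that 70 arrangements allow, and p = 0.0667 after adjustment over 7 receptor pairs.

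Class B receptors are hairpin proteins with a membrane anchor at each end. Cd36, which binds oxidised lipoproteins and long-chain fatty acids, measured 249, 221, 279 and 379 CPM in Aldara and 163, 165, 161 and 148 CPM in Vehicle. All Aldara libraries were above the narrow Vehicle range, and the log2 fold change was 0.83 (SE 0.15, adjusted p = 0.0072). Its call held in all 8 fits without 1 library, with a highest adjusted p of 0.0238. Cd36 is also made by endothelium and adipocytes. The 8 endothelial markers summed to 379 to 674 CPM in Aldara and 447 to 646 CPM in Vehicle, with 0 called by edgeR or DESeq2 and 0 at an unadjusted p under 0.05. The 6 adipocyte markers summed to 5.58 to 12.2 CPM in Aldara and 2.17 to 4.07 CPM in Vehicle, and none was at 0. Adipoq and Cidec, 2 of the 6, were called higher (6.98% of all genes). The epithelial genes Epcam, Krt8 and Krt18 summed to 7004 to 8871 CPM in Aldara and 6896 to 10134 CPM in Vehicle. The part of endothelial, adipocyte or epithelial transcripts in the Cd36 value was not tested.

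Scarb1, or SR-BI, takes up cholesterol esters from high-density lipoprotein. It measured 129, 99.9, 128 and 118 CPM in Aldara and 114, 104, 89.6 and 117 CPM in Vehicle, overlapping ranges (log2 fold change 0.16, SE 0.11, adjusted p = 0.417). Scarb2, or LIMP-2, is mainly a protein of the lysosomal membrane rather than a surface scavenger receptor. It measured 278, 272, 267 and 284 CPM in Aldara and 317, 314, 286 and 312 CPM in Vehicle. The groups did not overlap, yet the log2 fold change was −0.16 (SE 0.08) with an adjusted p of 0.249.

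Within class B, the log2 ratio of Scarb2 to Cd36 averaged −0.01 ± 0.31 in Aldara and 0.95 ± 0.10 in Vehicle, a difference of −0.96. That of Scarb1 to Cd36 averaged −1.22 ± 0.32 in Aldara and −0.59 ± 0.22 in Vehicle, a difference of −0.64. For both pairs the groups did not overlap, with exact permutation p = 0.0286, adjusted p = 0.0667. The ratio of Scarb2 to Scarb1 differed by −0.32 between Aldara and Vehicle (exact permutation p = 0.0571, adjusted p = 0.1), with overlapping groups.

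Cd163, the receptor of haptoglobin-haemoglobin complexes, and Mrc1, the mannose receptor CD206, were among the most abundant receptors. Cd163 measured 269, 359, 488 and 622 CPM in Aldara and 112, 221, 316 and 166 CPM in Vehicle. Vehicle replicate 3 lay above Aldara replicate 1, and the log2 fold change of 1.09 (SE 0.34) did not pass (adjusted p = 0.0734). It passed once the replicate number was a block (adjusted p = 0.0137), when Aldara replicate 1 was left out (0.046) and when Vehicle replicate 3 was left out (0.0409).

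Mrc1 measured 321, 497, 770 and 792 CPM in Aldara and 243, 335, 351 and 307 CPM in Vehicle. Only Aldara replicate 1 fell within the Vehicle range. The log2 fold change was 0.95 (SE 0.27) with an adjusted p of 0.0546. Blocking on the replicate number gave 0.0102, leaving out Aldara replicate 1 gave 0.0019, and a filter of at least 1 CPM in 4 libraries gave 0.0408. The log2 ratio of Mrc1 to Cd163 differed by −0.26 between Aldara and Vehicle, within the spread of the libraries (exact permutation p = 0.314, adjusted p = 0.433).

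The stabilins are large receptors of macrophages and sinusoidal endothelium. Stab1, which internalises the matrix protein SPARC, measured 167, 258, 331 and 388 CPM in Aldara and 122, 167, 192 and 185 CPM in Vehicle. Aldara replicate 1 lay inside the Vehicle range. The log2 fold change was 0.78 (SE 0.25, adjusted p = 0.0794), and it passed with the replicate block (adjusted p = 0.0024) and without Aldara replicate 1 (0.0049). Sparc itself fell to 154 ± 27.7 CPM in Aldara, against 260 ± 43.1 CPM in Vehicle (adjusted p = 0.0102). Of 6 fibroblast markers, 5 also fell (3.86% of all genes). The fibroblast list summed to 65.3 to 137 CPM in Aldara and 206 to 562 CPM in Vehicle. The part of fibroblast transcripts in the Sparc value was not tested.

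Stab2, a hyaluronan receptor of liver and lymph node sinusoids, was near the limit of detection, with 10, 21, 16 and 21 counts in Aldara and 5, 6, 9 and 22 counts in Vehicle. The Vehicle library with 22 counts reached 0.707 CPM, above 2 of the 4 Aldara libraries. The log2 fold change of 0.99 (SE 0.45) did not pass (adjusted p = 0.192). Exons of Stab1 overlap those of Nt5dc2, and exons of Stab2 an antisense gene with 5 counts in Aldara and 1 in Vehicle, and the kit does not mark the strand. Reads in the shared stretches cannot be told apart.

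Lrp1, a very large endocytic receptor of apolipoprotein E, protease complexes and dying cells, measured 215, 317, 383 and 366 CPM in Aldara. In Vehicle it measured 156, 195, 139 and 182 CPM, and all Aldara libraries were higher. The log2 fold change was 0.93 (SE 0.18, adjusted p = 0.0098), called in all 8 fits without 1 library with a highest adjusted p of 0.0399. The log2 ratio of Lrp1 to Mrc1 averaged −0.84 ± 0.26 in Aldara and −0.88 ± 0.31 in Vehicle (exact permutation p = 0.914, adjusted p = 0.914).

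Per kilobase of annotated exon, the order of the receptors differed between the groups. In Aldara, Mrc1 came first with 93.4 ± 35.5 CPM per kb, then Cd163 with 79.6 ± 28.2 and Cd36 with 78.6 ± 19.3, and the ranges of these 3 overlap. Scarb2 (43.8 ± 1.17), Marco (36.9 ± 22.6) and Stab1 (27.8 ± 9.26) followed, where Marco overlapped both its neighbours. Lrp1 averaged 18.1 ± 4.25, Scarb1 13.97 ± 1.58, Msr1 2.04 ± 0.67 and Stab2 0.0868 ± 0.0333 CPM per kb. Lrp1 overlapped both Stab1 and Scarb1, whereas Msr1 and Stab2 lay apart from all others.

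In Vehicle, Scarb2 (48.9 ± 2.25), Mrc1 (48.5 ± 7.45), Cd36 (44.3 ± 2.20) and Cd163 (37.3 ± 15.9 CPM per kb) were the leading receptors, each overlapping the next. Stab1 (16.2 ± 3.08), Scarb1 (12.5 ± 1.46) and Lrp1 (9.50 ± 1.44) came next, also with overlapping neighbours. Marco was number 9 of 10 in Vehicle with 0.259 ± 0.216 CPM per kb, between Msr1 (2.11 ± 0.28) and Stab2 (0.0419 ± 0.0259). Its Vehicle range overlapped that of Stab2, and it was number 5 in Aldara. Of the summed per-length level of the 10 receptors, Marco made up 4.70% to 12.1% in Aldara libraries and 0.0383% to 0.258% in Vehicle libraries.

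**Figure D2:**
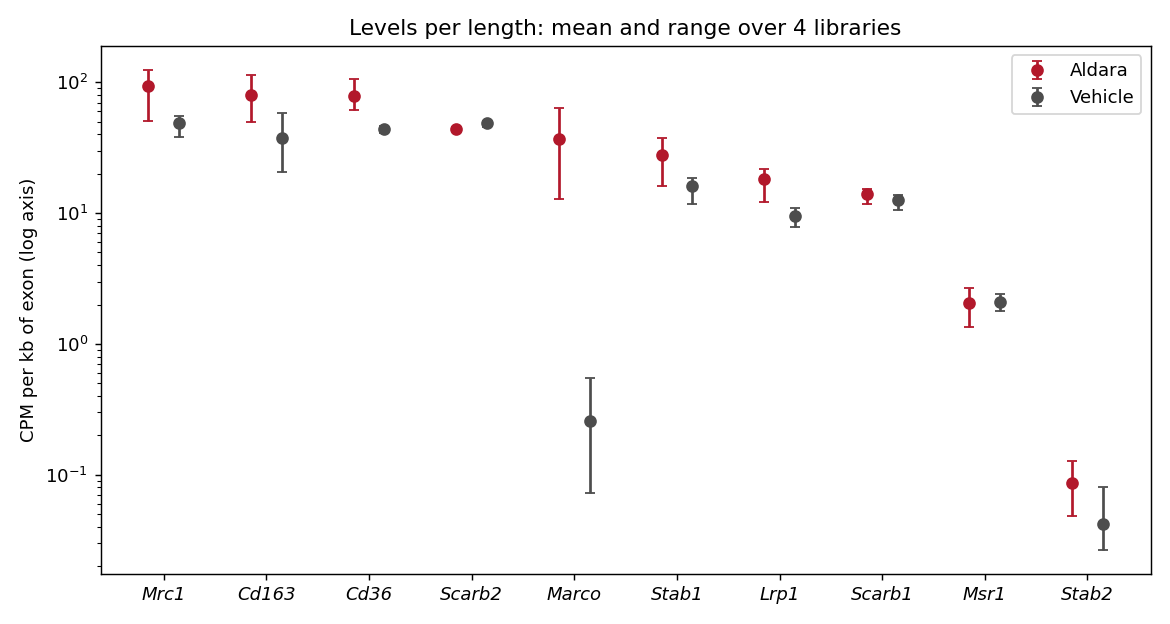
CPM per kb of exon on a log axis for each receptor, ordered by the Aldara mean; points are means of 4 libraries and bars run from the lowest to the highest library. Marco averages 36.9 CPM per kb in Aldara and 0.259 in Vehicle, while Scarb1, Scarb2 and Msr1 stay close together in the 2 groups.

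The level of macrophage transcripts also differed. A panel of 14 macrophage and leukocyte genes that are no members had a geometric mean of 80.5, 114, 204 and 196 CPM in Aldara replicates 1 to 4 and of 36.6, 49.9, 62.4 and 49.5 CPM in Vehicle. Of the 14 panel genes 12 were called higher (6.98% of all genes), with a median log2 fold change of 1.68. Aldara replicate 1 was the lowest Aldara library for the panel as for Marco, Msr1, Cd163, Stab1, Stab2, Mrc1 and Lrp1. Csf1r, a panel gene and the receptor of macrophage growth factor, measured 322, 404, 714 and 732 CPM in Aldara and 180, 265, 346 and 302 CPM in Vehicle. Aldara replicate 1 lay below Vehicle replicate 3, and the log2 fold change of 0.99 (SE 0.30) did not pass (adjusted p = 0.0648, and 0.0011 with the replicate block).

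With libraries scaled to this panel, the median of all genes shifted by −1.41 on the log2 scale, 69 genes (0.411%) were called higher and 14947 (89.1%) lower. Marco was 1 of the genes still higher, with a log2 fold change of 5.45 (SE 0.51). Msr1 (−1.61), Scarb2 (−1.59) and Scarb1 (−1.28) were called lower. Their differences from the median of all genes were −0.20, −0.18 and 0.13. The values of Cd163 (−0.40), Stab2 (−0.50), Lrp1 (−0.61), Mrc1 (−0.64), Cd36 (−0.67) and Stab1 (−0.76) did not pass, with standard errors of 0.41 to 0.57. In the same order, their differences from the median of all genes were 1.01, 0.905, 0.79, 0.77, 0.73 and 0.64. All 7 receptors other than Marco that had a positive log2 fold change under TMM (Cd36, Scarb1, Cd163, Stab1, Stab2, Mrc1 and Lrp1) had a negative one under this scaling.

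The size of these relative values depended on the genes used as a scale. With Csf1r alone, an alternative chosen after the data were seen, Marco was higher by 6.07 (0.733% of all genes called higher) and Msr1 (−1.07) and Scarb2 (−1.06) were called lower (26.2% of all genes). Mrc1, Lrp1, Stab1, Cd36, Cd163 and Stab2 then lay between −0.20 and 0.16 and did not pass, nor did Scarb1 (−0.76). In single libraries, log2 Mrc1 relative to the panel lay between 1.92 and 2.13 in Aldara and between 2.49 and 2.75 in Vehicle, without overlap. Relative to Csf1r, Mrc1 averaged 0.13 ± 0.12 in Aldara and 0.20 ± 0.21 in Vehicle, with overlap. Msr1 stayed without overlap on both scales, at −3.65 to −3.24 in Aldara and −2.13 to −1.52 in Vehicle relative to the panel. Relative to Csf1r it lay at −5.46 to −5.23 in Aldara and −4.74 to −3.82 in Vehicle. How many of all genes are without overlap on these scales was not counted, and most genes shift lower under both.

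**Figure D3:**
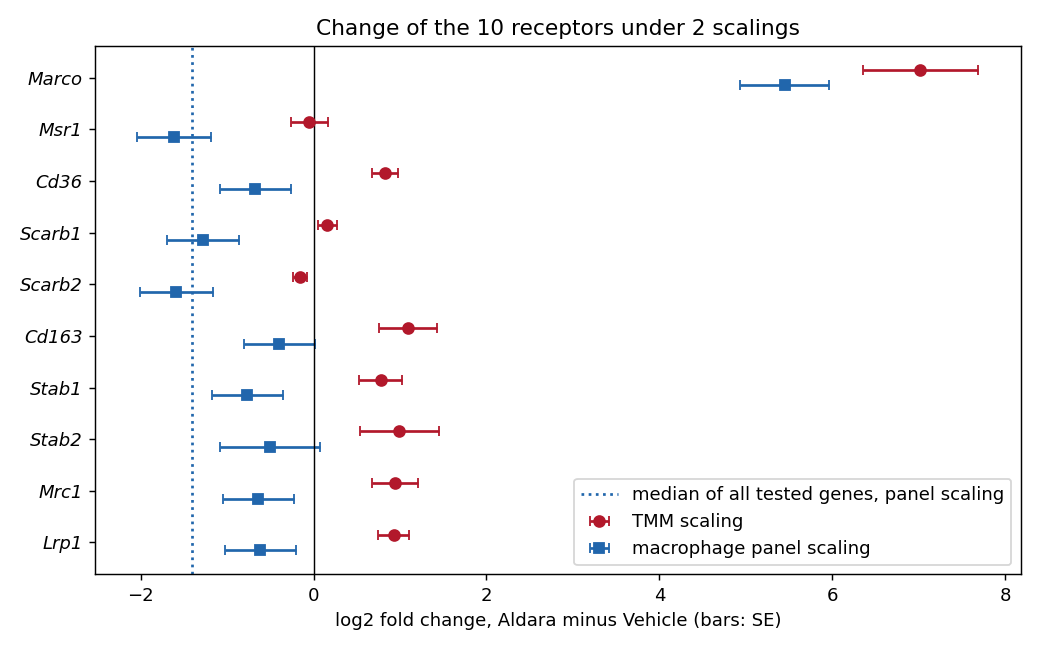
Log2 fold change (Aldara minus Vehicle, bars are SE) of each receptor with TMM scaling (circles) and with scaling to the macrophage panel (squares); the dotted line is the median of all tested genes under panel scaling, at −1.41. Marco lies right of 0 and Msr1 and Scarb2 lie left of 0 under both, while the other 7 receptors change sign.

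**Figure D4:**
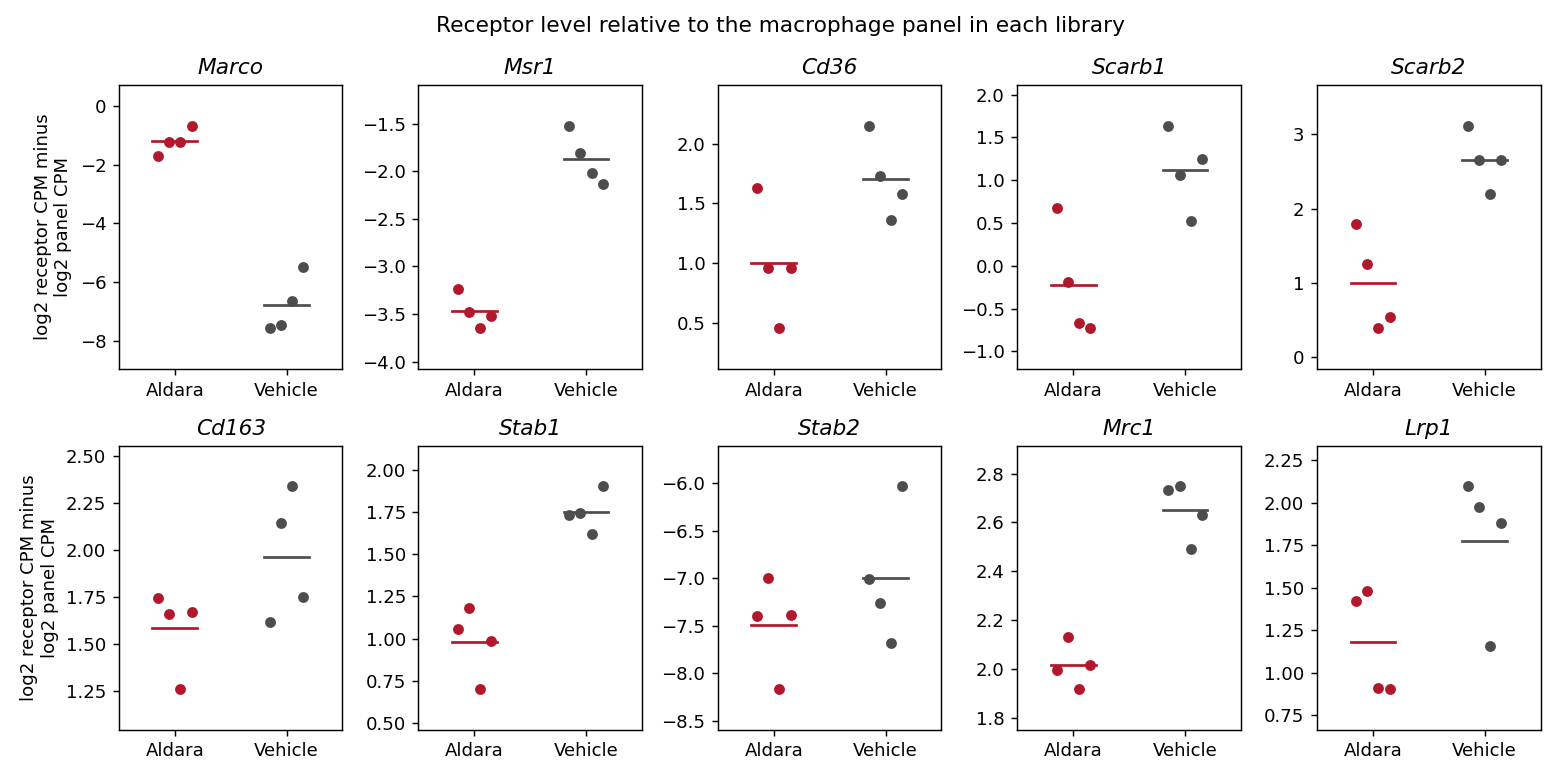
Log2 receptor CPM minus log2 panel CPM in each of 4 Aldara and 4 Vehicle libraries; lines are group means. Marco is higher in all Aldara libraries, and Msr1, Scarb2, Stab1 and Mrc1 are lower in all of them. Under panel scaling the median of all tested genes was −1.41 and 89.1% were called lower. The share of all genes without overlap on this scale was not counted.

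The profiles of the receptors across the 8 libraries were compared by the root mean square difference of their centred log2 CPM. This distance includes the difference between Aldara and Vehicle, so genes of like fold change lie close. The closest pair was Stab1 and Mrc1 (0.131), followed by Scarb1 and Scarb2 (0.204) and by Mrc1 and Lrp1 (0.251). Marco was far from the other 9, nearest to Cd163 (3.01) and farthest from Scarb2 (3.69). Among 10991 protein-coding genes of at least 5 CPM in a group, those closest to Marco were Fcrl5 (0.541), Slc13a3 (0.937), Fpr1 (0.993), Cd300e (1.07) and Saa3 (1.10), where the median gene lay at 3.61. Their log2 fold changes were 6.01 to 8.04, so their nearness restates a large rise. Fcrl5, Fpr1, Cd300e and Saa3 reached 5 CPM in Aldara only, with Vehicle means of 0.0435, 0.245, 0.119 and 0.426 CPM. Fcrl5 is an Fc receptor-like protein, Slc13a3 a dicarboxylate transporter and Fpr1 a receptor of formylated peptides.

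Closest to Mrc1 were Adam8 (0.0492), a membrane protease, and F13a1 (0.088), a coagulation factor chain of macrophages. Closest to Cd163 were N4bp2l1 (0.102) and Mertk (0.146), a receptor for dying cells. Closest to Stab1 were Iffo1 (0.0965) and Dock2 (0.101), and to Lrp1 St6galnac4 (0.0914) and Hdac9 (0.0937). For Msr1 they were Tcn2 (0.122) and Emb (0.123), for Cd36 Pde8a (0.105) and Cnksr3 (0.124). For Scarb1 they were Mfsd10 (0.0523) and Prkch (0.0605), for Scarb2 Smarca4 (0.0248) and Immt (0.0336), and for Stab2 Alpk1 (0.287) and Lpar5 (0.318). Nearly flat profiles such as that of Scarb2 give small distances to many genes.

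Among 20 other scavenger receptors, 15 were tested, and 4 rose and 0 fell with TMM scaling (6.98% and 3.86% of all genes). Panel scaling called 1 higher and 10 lower (0.411% and 89.1% of all genes). Their median log2 fold change with TMM scaling was 0.31. At an unadjusted p under 0.05, 7 were higher and 1 lower (14.4% and 11.7% of all genes). DESeq2 called 5 higher and 0 lower (9.55% and 7.43% of genes with an adjusted p). Cd44, the hyaluronan receptor, rose to 136 ± 24.5 CPM in Aldara, against 58.9 ± 3.26 CPM in Vehicle (log2 fold change 1.20, SE 0.13, adjusted p = 0.000956). Cd14, the endotoxin co-receptor, rose to 604 ± 108 CPM in Aldara, against 375 ± 15.1 CPM in Vehicle. Fcrls, a receptor with a scavenger domain, rose by 2.68 (SE 0.42) and Clec4n, the lectin Dectin-2, by 1.07 (SE 0.29) on the log2 scale. Cd68 averaged 133 ± 47.3 CPM in Aldara and 72.6 ± 17.3 CPM in Vehicle (adjusted p = 0.0666, and 0.00233 with the replicate block). Scara5, a ferritin receptor of class A, averaged 44.8 ± 5.68 CPM in Aldara and 44.4 ± 13.4 CPM in Vehicle (adjusted p = 0.978).

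Relatives of Mrc1 and Lrp1 made 0 calls among 14 tested genes with edgeR (10.8% of all genes in either direction). With the replicate block 2 were called lower, Mrc2 and Lrp5 (6.14% of all genes). At an unadjusted p under 0.05, 1 was higher and 2 were lower (14.4% and 11.7% of all genes). DESeq2 called 0 higher and 2 lower (9.55% and 7.43% of genes with an adjusted p). Panel scaling called all 14 lower (89.1% of all genes), and the median log2 fold change with TMM scaling was 0.10. Mrc2, a collagen receptor of fibroblasts, averaged 1.44 ± 0.46 CPM in Aldara and 2.96 ± 1.29 CPM in Vehicle. Lrp5, a Wnt co-receptor, averaged 295 ± 26.3 CPM in Aldara and 407 ± 101 CPM in Vehicle. Sorl1, a sorting receptor, averaged 456 ± 71.9 CPM in Aldara and 384 ± 66.7 CPM in Vehicle (adjusted p = 0.338).

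Of 20 tested ligands, chaperones and partners, 5 rose and 3 fell with TMM scaling (6.98% and 3.86% of all genes). Their median log2 fold change was 0.07, while panel scaling called 0 higher and 14 lower (0.411% and 89.1% of all genes). There were 8 higher and 5 lower at an unadjusted p under 0.05 (14.4% and 11.7% of all genes). Calls numbered 6 higher and 3 lower with DESeq2 (9.55% and 7.43% of genes with an adjusted p). The replicate block gave 7 higher and 4 lower (9.21% and 6.14% of all genes). C1qa, C1qb and C1qc, the chains of complement C1q, which binds dying cells, rose by 1.58 (SE 0.34), 1.70 (SE 0.34) and 1.74 (SE 0.37). Lyn, a kinase that signals below Cd36, rose to 189 ± 74.9 CPM in Aldara, against 59.6 ± 2.46 CPM in Vehicle, and Plin2, a lipid droplet protein, rose by 0.93 (SE 0.20). Cd9, a tetraspanin partner of Cd36, fell to 422 ± 42.6 CPM in Aldara, against 693 ± 72.3 CPM in Vehicle, and Tgm2, a transglutaminase, fell by 2.04 (SE 0.47). Lrpap1, the chaperone of Lrp1, averaged 82.3 ± 8.53 CPM in Aldara and 78.2 ± 1.72 CPM in Vehicle (adjusted p = 0.649). Mfge8, a bridge between dying cells and phagocytes, averaged 1344 ± 341 CPM in Aldara and 960 ± 146 CPM in Vehicle (adjusted p = 0.117, and 0.0185 with the replicate block). Apoe, a ligand of Lrp1, averaged 3712 ± 1496 CPM in Aldara and 1882 ± 627 CPM in Vehicle (adjusted p = 0.0894, and 0.00139 with the replicate block).

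Of 18 genes of endocytosis and phagocytosis, 3 rose and 0 fell with TMM scaling (6.98% and 3.86% of all genes). Their median log2 fold change was 0.17, while panel scaling called 1 higher and 15 lower (0.411% and 89.1% of all genes). At an unadjusted p under 0.05, 7 were higher and 0 lower (14.4% and 11.7% of all genes). DESeq2 called 5 higher and 0 lower (9.55% and 7.43% of genes with an adjusted p). Rac2, the haematopoietic Rac GTPase, rose to 241 ± 120 CPM in Aldara, against 19.5 ± 2.10 CPM in Vehicle. Elmo1, which activates Rac during engulfment, rose by 1.12 (SE 0.25) and Lamp1, a lysosomal membrane protein, by 0.45 (SE 0.13). Cltc, the clathrin heavy chain, averaged 640 ± 93.2 CPM in Aldara and 534 ± 23.6 CPM in Vehicle (adjusted p = 0.185). Lamp2, another lysosomal membrane protein, averaged 409 ± 66.1 CPM in Aldara and 335 ± 16.2 CPM in Vehicle (adjusted p = 0.156).

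Of 15 transcription factors that regulate such receptors, 3 rose and 0 fell with TMM scaling (6.98% and 3.86% of all genes). Their median log2 fold change was 0.58, while panel scaling called 0 higher and 9 lower (0.411% and 89.1% of all genes). At an unadjusted p under 0.05, 11 were higher and 0 lower (14.4% and 11.7% of all genes). DESeq2 called 8 higher and 0 lower (9.55% and 7.43% of genes with an adjusted p). Spi1, which encodes PU.1, rose by 2.11 (SE 0.33) and Bach1, a haem-sensing repressor, by 0.64 (SE 0.17). Spi1 is also a panel gene. With the replicate block 7 of the 15 were called higher (9.21% of all genes), among them Maf. Maf averaged 148 ± 55.7 CPM in Aldara and 73.9 ± 18.5 CPM in Vehicle (adjusted p = 0.0535, and 0.00149 with the block). Klf4 averaged 434 ± 73.2 CPM in Aldara and 438 ± 43.4 CPM in Vehicle (adjusted p = 0.967). Srebf2, the sterol-sensing factor, averaged 306 ± 45.1 CPM in Aldara and 301 ± 80.0 CPM in Vehicle (adjusted p = 0.951).

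Markers of other cells gave the following values beside these receptors. Of 6 neutrophil markers none passed the filter, they summed to 0.837 to 1.65 CPM in Aldara and 0.0938 to 0.193 CPM in Vehicle, and Ly6g was at 0 in all libraries. The 4 monocyte markers summed to 36.9 to 58.4 CPM in Aldara and 57.6 to 90.1 CPM in Vehicle, with Chil3 higher and Plac8 lower. Lymphatic and sinusoidal endothelial markers summed to 81.8 to 205 CPM in Aldara and 109 to 164 CPM in Vehicle, with 0 of 5 called by edgeR or DESeq2, 1 lower at an unadjusted p under 0.05, and Lyve1 at 109 ± 56.9 CPM in Aldara and 119 ± 28.8 CPM in Vehicle. B cell markers summed to 3.67 to 8.85 CPM in Aldara and 0.411 to 0.867 CPM in Vehicle, most of it Cd79b, the 1 B cell marker that passed the filter. T cell markers summed to 0.854 to 2.35 CPM in Aldara and 0.563 to 0.847 CPM in Vehicle, and dendritic cell markers to 7.43 to 9.79 CPM in Aldara and 10.1 to 14.5 CPM in Vehicle. Of the 2 dendritic cell markers tested, 1 was called lower and 0 higher (3.86% and 6.98% of all genes). The 4 mast cell markers summed to 184 to 360 CPM in Aldara and 230 to 312 CPM in Vehicle, nearly all of it Kit, which luminal epithelium also expresses. The part of any of these cells in the receptor values was not tested.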

How the data were processed

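The submitters' processing notes name mm10 and, without stating their roles, the tools DESeq2, featureCounts (1.5.0-p3) and HISAT2 (2.0.5). Settings and gene annotation are not stated in them. Per the labels, RNA was amplified with a SMARTer ultra-low-input kit, which does not mark the strand. The authors deposited raw counts, whole numbers for each gene in each library. Symbols, exon lengths and overlaps came from GENCODE M21 (52073 of 56748 identifiers, 91.8%); some identifiers are newer than it. Members and lists were chosen with earlier results of these data known.

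Counts were filtered with filterByExpr, scaled with TMM and tested with edgeR 4.0.16 (robust quasi-likelihood) in R 4.3.3. Levels are CPM on effective library sizes, where 1 count is worth 0.0282 to 0.0532 CPM; fold changes are Aldara minus Vehicle, with SE from the F statistic. Ratios of 2 receptors used log2(count + 0.5). Panel levels are geometric means of CPM + 1, and ratios to them used receptor CPM + 0.05. Counting intervals cover counting error only, since reads carry no molecular identifiers.

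The panel held Csf1r, Ptprc, Tyrobp, Fcer1g, Laptm5, Aif1, Ctss, Spi1, Cybb, Fcgr1, Fcgr3, Mpeg1, Cd53 and a gene that is not reported here. Named genes are the members, up to 5 called genes of each list by smallest p and up to 2 others by level, marker genes of highest level, and the 5 (Marco) or 2 (others) nearest profiles; C1qa, C1qc, Tgm2, Lrpap1, Mrc2, Maf, Adipoq and Ly6g were named outside this rule, after their values were seen. Libraries of a group differed by a chi-square of at least 18.2 per degree of freedom, so none was a repeat of another. Same-numbered libraries of the 2 groups deviated together (r across genes 0.108 to 0.228 for the 4 pairs). The labels do not say what the number marks, so the main tests and the exact permutation tests were unpaired. Blocked values are given beside them for each receptor whose call changed, and for some but not all other genes whose call changed. Alternatives were other scaling factors, filters, DESeq2 1.42.0, limma 3.58.1 voom, the replicate block and leaving out each library. The procedure was tested on simulated data with changes balanced between higher and lower, which does not address the choice of scale.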

Additional observations from a re-analysis of the deposited data

Results flagged for a closer look

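Of 38 groups of 4 values examined (the 10 receptors, 7 receptor ratios, total counts and the panel in each group), 1 held a library far from the other 3. Stab2 in Vehicle replicate 4 measured 0.707 CPM, where the other Vehicle libraries lay between 0.234 and 0.274 CPM. Chance flags about 1 in 20 such groups. The value rests on 22 counts, against 5, 6 and 9 in the other Vehicle libraries. Without that library the log2 fold change of Stab2 was 1.55 (adjusted p = 0.0642, edgeR with Benjamini-Hochberg adjustment).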

How the results depend on the processing

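The calls on Marco, Cd36 and Lrp1 held with RLE and upper-quartile factors, both filters, DESeq2, voom, the replicate block and without any 1 library. Receptors called higher numbered 4 with the filter of at least 1 CPM (Mrc1 added), 6 with DESeq2, 6 with the replicate block, 1 with panel scaling and 1 with Csf1r scaling, and 3 to 6 without 1 library, and receptors called lower numbered 3 with panel scaling, 2 with Csf1r scaling and 0 without any 1 library. All genes called lower numbered 990 with upper-quartile factors, 1198 with DESeq2 and 1030 with the replicate block. With panel scaling 69 genes were called higher and 14947 lower, and with Csf1r scaling 123 and 4399. Without 1 library the genes called higher ranged from 629 to 1405 and those called lower from 323 to 664. These counts fell by over 1.5 times without Aldara replicate 2 (353 lower), Aldara replicate 3 (658 higher and 323 lower), Aldara replicate 4 (629 higher), Vehicle replicate 1 (703 and 415) and Vehicle replicate 2 (699 and 412). Signs turned under panel scaling for 7 receptors, namely Cd36 (−0.67), Scarb1 (−1.28), Cd163 (−0.40), Stab1 (−0.76), Stab2 (−0.50), Mrc1 (−0.64) and Lrp1 (−0.61). Under Csf1r scaling they turned for 5, namely Cd36 (−0.15), Scarb1 (−0.76), Stab1 (−0.20), Mrc1 (−0.077) and Lrp1 (−0.064). The median of all genes moved by −1.41 and −0.88 under these scales. The replicate block changed no call on the receptors other than those on Cd163, Stab1 and Mrc1. For the 7 receptor ratios, the sign-flip test over 4 numbered pairs cannot pass the threshold. The exact permutation test has a smallest possible p of 0.0286, so it can pass after adjustment only if most of the 7 pairs reach that value together. No ratio passed after adjustment in any setting, with lowest adjusted p = 0.05, and this does not measure the size of a difference. The difference between Aldara and Vehicle in the log2 ratio of Lrp1 to Mrc1 varied in sign, from −0.12 to 0.13, without 1 library. Stab2 and, in Vehicle, Marco rest on few counts, which limits their precision.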
